A study of Mus musculus with 36 samples.

Results

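The circuit followed here through mouse heart development has 10 genes: the fatty acid receptors Ppara, Ppard and Pparg, the coactivators Ppargc1a (PGC-1 alpha) and Ppargc1b (PGC-1 beta), the estrogen-related receptors Esrra and Esrrg, the thyroid hormone receptors Thra and Thrb, and the glucocorticoid receptor Nr3c1. Their probe sets (groups of short probes, each reading 1 stretch of a transcript) were found by gene symbol, and every probe set with 1 of the 10 symbols was kept. This gave 28 of the 45101 probe sets on the array, or 10 of 20701 genes. Hearts came from OF1 mice, an outbred strain, with no engineered allele or treatment, at daily steps between E10.5 and E19.5 and also from young adults of 10 weeks (Adult) and from old adults (Old). The age of the old mice is 14 months in the sample labels and 10 months in the study's methods, and no value here depends on it. Each of the 12 stages had 3 arrays, a total of 36. Hearts of mixed sex were used for E10.5 and E11.5, and each later stage had 1 female, 1 male and 1 mixed array. Values are log2 intensities, so a difference of 1 is a 2-fold change.

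Nuclear receptors are transcription factors that small lipid-soluble ligands switch on or off. In heart muscle the PPARs respond to fatty acids and turn on genes of fatty acid uptake and oxidation, the estrogen-related receptors, which need no hormone, act on genes of respiration, and PGC-1 coactivators bind both families and raise their output. Thyroid hormone and glucocorticoids both rise around birth and act through their own receptors on the contractile and metabolic maturation of the heart.

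The tissue label was checked against marker genes. All 7 measured cardiomyocyte markers had a mean above 5 in every stage, and their summed signal lay between 15.0 and 15.7 on the log2 scale over the 36 arrays. The protocol text of the labels names liver, whereas all 6 liver markers stayed at or below 5 at every embryonic stage, and 1 of them (Ahsg) was above 5 in young adults. Array quality moved with stage. The spiked hybridization controls averaged 9.90 in E10.5 hearts, 11.16 in E19.5 hearts and 12.17 in those of young adults. The difference between the 3′ and 5′ probe sets of Gapdh, which grows as RNA is shorter, was 2.80, 3.94 and 1.84 in the same order. Centring each array on its bright probe sets moved the median difference of all probe sets from 0.19 to 0.71 for Adult minus E10.5, from 0.15 to 0.49 for E19.5 minus E10.5 and from 0.04 to 0.22 for Adult minus E19.5, so small differences are to be read against these shifts. Differences were tested with 1 limma model over all 36 arrays, with Benjamini-Hochberg adjustment over all probe sets. In a whole heart, fewer cells of a type and less RNA per cell cannot be told apart.

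By the brightest probe set of each gene, 7 of the 10 genes were higher and 0 lower at E19.5 than at E10.5. Over all genes read in this way, 26.2% were higher and 23.6% lower. In young adults 1 was higher and 4 were lower than at E19.5, against 14.7% and 17% of all genes. The count of 0 depends on the probe set chosen, since Esrrg 1455267_at was lower at E19.5 than at E10.5 (−2.77). From E10.5 to E19.5, 17 of the 28 probe sets were higher at an adjusted p under 0.05 and 1 was lower, while 23.7% of all probe sets were higher and 21.8% lower. From E19.5 to the young adult only 1 of the 28 was higher, a probe set of Nr3c1, 11 were lower and 16 did not pass. The 11 lower were 5 of Ppargc1a, 2 of Ppargc1b, 2 of Esrra, 1 of Esrrg and 1 of Thra. Over all probe sets the shares were 13.6% higher and 15.5% lower. Over the whole span from E10.5 to the young adult 12 were higher and 7 lower, against 35.9% and 27.1% of all probe sets. The median difference of the 28 was 0.62 for E19.5 minus E10.5, −0.27 for Adult minus E19.5 and 0.34 for Adult minus E10.5, and that of all probe sets was 0.15, 0.04 and 0.19. With arrays centred on bright probe sets the split was 22 higher and 1 lower, 4 higher and 10 lower, and 21 higher and 6 lower. With the hybridization control level as a covariate it was 14 and 1, 4 and 13, and 7 and 6. Shares over all probe sets were not counted in these alternative fits. Centring also raised the median of all probe sets, to 0.49 for E19.5 minus E10.5 and 0.71 for Adult minus E10.5. The control level rose with stage, with a highest value of 10.35 at E10.5 and a lowest of 12.03 in young adults. The covariate fit therefore cannot separate stage from array quality.

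A stricter rule asked for an adjusted p under 1e-05, more than a 4-fold change and some stage mean over 5, a level that 22 of the 28 probe sets reached. For Adult minus E10.5 it called 8 of the 28, 2 higher (Ppara 1439675_at and Pparg) and 6 lower (4 of Ppargc1a and 2 of Esrrg), against 6.53% of all probe sets. Pparg met the limit of 5 only through old adults (mean 5.10), and its means at E10.5 and in young adults were 2.88 and 4.92. The rule called 4 with the hybridization control level as a covariate. For E19.5 minus E10.5 it called 3, against 2.18%: 1 probe set each of Ppara and Ppargc1b, both higher, and 1 of Esrrg, lower. Without replicate 2 of E10.5 this count was 1, and without the male array of E19.5 it was 5. For Adult minus E19.5 it called 2, both of Ppargc1a and both lower, against 1.45%.

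**Figure D1:**
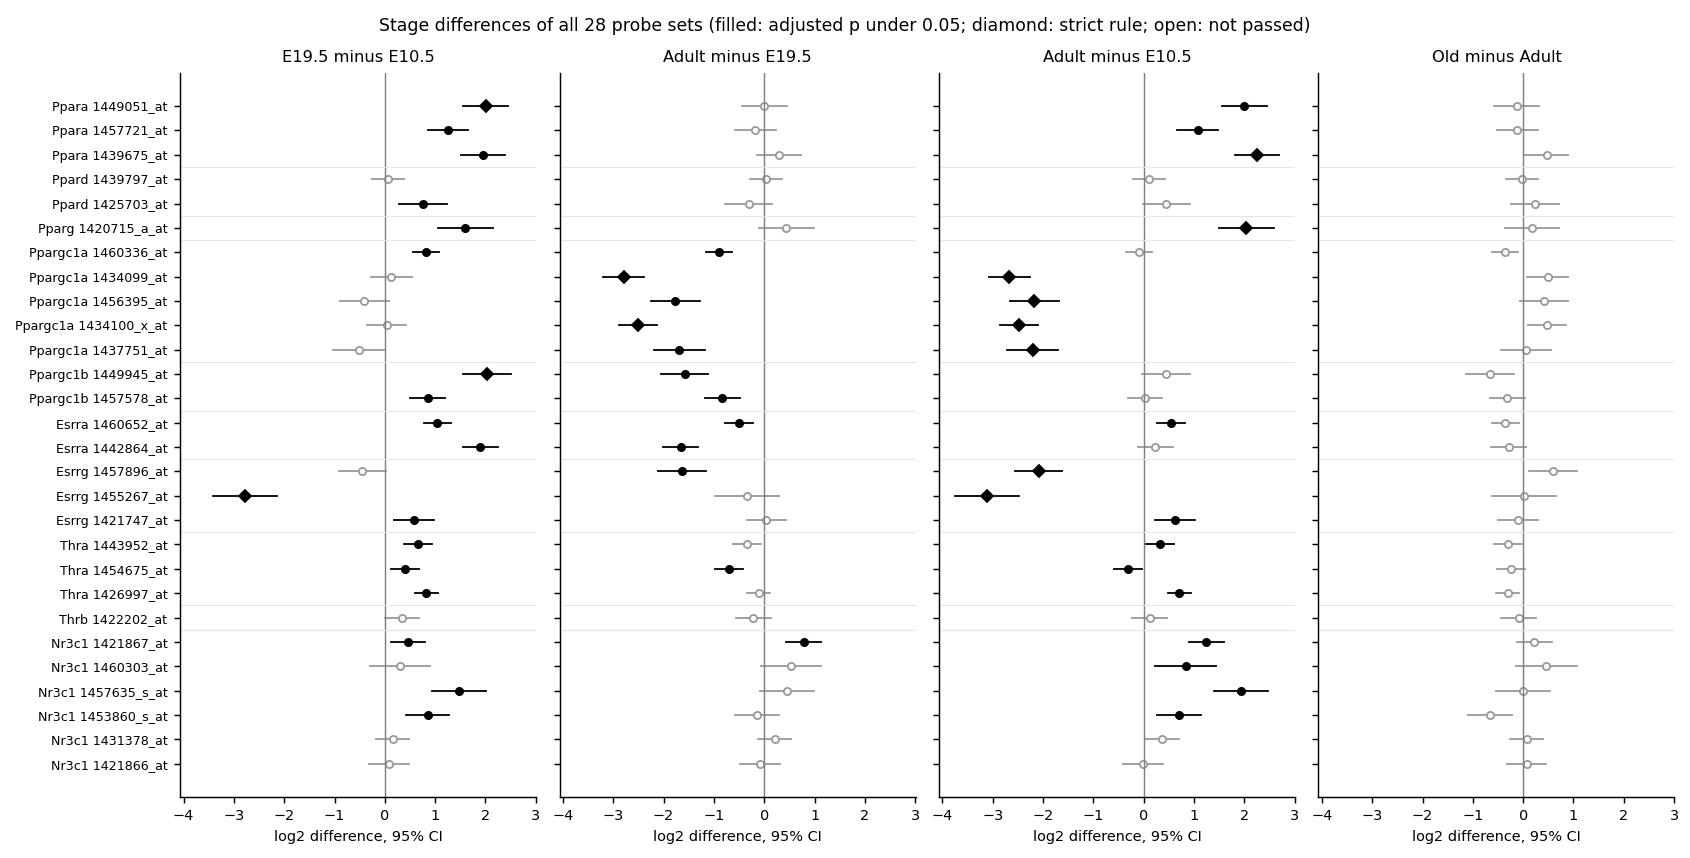
Log2 difference (x axis, with its 95% confidence interval) of each of the 28 probe sets (y axis) in 4 comparisons of stages with 3 arrays each. Filled marks passed an adjusted p under 0.05, diamonds also passed the strict rule and open marks passed neither. In the first panel 17 filled marks lie right of 0, in the second 11 lie left of it, and in the last none is filled.

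Ppara (gene ID 19013, chromosome 15, 85734910 to 85806851 in GRCm38.p6) encodes the receptor that drives fatty acid oxidation in heart muscle, and it climbed from a level near the limit of 5 to a clear signal within the embryonic period. At its brightest probe set, 1449051_at, the 3 arrays of E10.5 had 4.49, 4.62 and 5.05. At E15.5 they had 6.61, 6.72 and 6.75, and at E18.5 they had 7.44, 7.59 and 7.90. No array of E10.5 overlapped with any array of E15.5 or E18.5. At E19.5 the values were 6.38, 6.71 and 7.06, and in young adults 6.26, 6.90 and 7.0, so these stages overlapped. Ppara was 2.00 ± 0.22 (SE, n = 3) log2 units higher at E19.5 than at E10.5 (adjusted p = 1.62e-08). This probe set fell by 0.92 from E18.5 to E19.5 (adjusted p = 0.0292), a step that did not pass at 1439675_at (−0.21, adjusted p = 0.787) or at 1457721_at (−0.03, adjusted p = 0.978). Between E19.5 and young adults the difference was −0.00, with a 95% interval from −0.45 to 0.45. The other probe sets, 1439675_at and 1457721_at, were also higher at E19.5 than at E10.5, by 1.95 and 1.25. The highest stage was E18.5, which did not differ from E17.5 and E16.5 at an adjusted p under 0.05.

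Ppard, the PPAR found in most tissues, kept a low signal. The brightest of its 2 probe sets, 1439797_at, ranged from 4.26 to 5.46 over the 30 embryonic arrays with a median of 4.72, and from 4.39 to 4.92 over the 6 adult arrays. None of the 4 main comparisons passed at this probe set, and its Adult minus E10.5 difference was 0.10 ± 0.16 (SE), with a 95% interval from −0.22 to 0.42. Of the 66 pairs of stages, 17 differed at this probe set at an adjusted p under 0.05, and the highest stage, E17.5, did not differ from those of E13.5 to E16.5 or from E18.5. With arrays centred on bright probe sets that difference was 0.63 (adjusted p = 0.00485), where the median of all probe sets was 0.71. The dimmer probe set 1425703_at was 0.76 higher at E19.5 than at E10.5 (adjusted p = 0.00852) while staying below 5 in every stage mean.

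Pparg, the PPAR of fat cells and lipid storage, rose late from a low signal, and only its mean in old adults (5.10) was above 5. Its only probe set, 1420715_a_at, read 2.74, 2.95 and 2.97 at E10.5 and 3.58, 3.61 and 3.69 at E18.5. At E19.5 the female array had 4.95, the male array 4.68 and the mixed array 3.82, and in young adults the values were 4.68, 4.79 and 5.29. The embryonic arrays before E19.5 all lay below those of young adults. Pparg was 1.60 ± 0.27 (SE, n = 3) higher at E19.5 than at E10.5 (adjusted p = 1.41e-05) and 2.04 ± 0.27 higher in young adults (adjusted p = 1.16e-07). Old adults ranged from 4.2 to 5.95, the widest spread among the 12 stages at this probe set. The summed signal of 6 adipocyte markers also rose, with most of its rise by E18.5. From E11.5 to E19.5 only Fabp4 among them had a mean above 5, so the sum at E18.5 mainly reads Fabp4. This sum therefore does not give the timing of fat cells. The summed signal ranged from 5.34 to 5.52 in E10.5 hearts and from 11.20 to 11.93 in E18.5 hearts. The range was 11.88 to 12.17 in E19.5 hearts and 12.31 to 12.59 in young adult hearts. None of these 6 markers had a mean above 5 at E10.5, 1 did at E19.5 (Fabp4, also found in the endothelium) and 4 did in young adults, and Lep and Cidec were below 5 throughout. The part of fat cells in the Pparg signal was not tested.

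The start regions of the receptors are shown for genes whose signal moved in this series, so that the letters that receptors and general factors bind can be seen. A RefSeq table (GRCm38.p6) was read for windows from 250 bases before to 50 bases after the start, 13 windows of 7 genes, and those of Thra, Nr3c1 and Ppargc1b were not analysed here. A choice of 4 follows, 5′ to 3′ on the gene's strand, in lower case. Capitals mark exact matches, on either strand, to 7 motifs. AGGTCA is the half-site that nuclear receptors bind, and TNAAGGTCA, which contains it, is its extended form for estrogen-related receptors. TGACGTCA is the CREB element, and CACGTG is the E-box. GGGCGG is the GC box, and TATAAA is the TATA box. TGTTCT is the half-site of the glucocorticoid receptor. The windows are those of Ppara (chr15:85735526-85735825, plus strand), Pparg (chr6:115362099-115362398, plus strand), Ppargc1a (chr5:51567676-51567975, minus strand) and Esrra (chr19:6921759-6922058, minus strand).
Ppara: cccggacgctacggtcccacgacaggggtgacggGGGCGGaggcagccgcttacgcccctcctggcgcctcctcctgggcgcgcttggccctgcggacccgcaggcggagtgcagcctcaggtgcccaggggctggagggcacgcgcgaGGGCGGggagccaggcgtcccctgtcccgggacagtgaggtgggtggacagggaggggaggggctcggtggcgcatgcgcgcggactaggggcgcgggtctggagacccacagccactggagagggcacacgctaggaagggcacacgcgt
Pparg: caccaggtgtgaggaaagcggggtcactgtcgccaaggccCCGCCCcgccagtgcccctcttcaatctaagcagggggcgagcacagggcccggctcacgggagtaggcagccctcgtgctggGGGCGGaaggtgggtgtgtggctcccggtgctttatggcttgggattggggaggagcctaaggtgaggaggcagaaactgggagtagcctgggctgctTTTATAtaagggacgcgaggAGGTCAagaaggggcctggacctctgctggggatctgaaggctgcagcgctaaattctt
Ppargc1a: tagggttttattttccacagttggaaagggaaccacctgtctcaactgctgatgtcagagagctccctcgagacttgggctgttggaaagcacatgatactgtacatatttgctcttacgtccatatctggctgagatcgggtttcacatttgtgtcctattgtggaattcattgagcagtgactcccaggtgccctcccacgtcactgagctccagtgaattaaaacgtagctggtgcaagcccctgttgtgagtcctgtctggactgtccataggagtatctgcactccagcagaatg
Esrra: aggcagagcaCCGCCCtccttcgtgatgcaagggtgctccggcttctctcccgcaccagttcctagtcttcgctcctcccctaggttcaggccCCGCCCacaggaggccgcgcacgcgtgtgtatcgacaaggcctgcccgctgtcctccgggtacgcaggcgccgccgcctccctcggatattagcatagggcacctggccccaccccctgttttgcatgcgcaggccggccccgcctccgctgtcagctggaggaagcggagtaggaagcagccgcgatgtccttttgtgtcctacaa
The Ppara window held 2 GC boxes, whose first bases lie 216 and 101 bases before the start. The Esrra window held 2 GC boxes in reverse, 240 and 157 bases before the start. The Pparg window held 2 GC boxes, a TATA box in reverse 29 bases before the start and a half-site 9 bases before it. The Ppargc1a window held none of these letters and lies inside the annotated gene, chromosome 5 from 51454249 to 52115853. Of 32851 promoter windows of the same length, 35.7% hold a GC box, 13.6% a TATA box, 16.3% the half-site, 1.28% the extended half-site, 1.79% the CREB element, 7.15% the E-box and 19% the glucocorticoid receptor half-site. The GC content was 74.7% for Ppara, 62.7% for Pparg, 66% for Esrra and 48.7% for Ppargc1a, and the median window has 52.7%.

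Ppargc1a, the PGC-1 coactivator induced by cold, fasting and exercise, had a broad maximum in the second part of gestation and was lower in adults, by an amount that depended on the probe set. At the brightest probe set, 1460336_at, E10.5 had 7.97, 7.99 and 8.01, E17.5 had 9.28, 9.41 and 9.67, E19.5 had 8.69, 8.81 and 8.90, and young adults had 7.61, 7.95 and 8.13. E17.5 and E19.5 lay above all arrays of both end stages. This probe set was 0.81 ± 0.13 (SE, n = 3) higher at E19.5 than at E10.5 (adjusted p = 5.87e-06) and 0.90 ± 0.13 lower in young adults than at E19.5 (log2 difference −0.90, adjusted p = 1.36e-06). Young adults and E10.5 differed by −0.09 ± 0.13, which did not pass. With arrays centred on bright probe sets this last difference was 0.43 (adjusted p = 0.0206).

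The other 4 probe sets of Ppargc1a carried a deeper adult drop. At 1434099_at, E10.5 had 7.24, 7.39 and 7.48, E19.5 had 7.39, 7.40 and 7.70, and young adults had 4.22, 4.77 and 5.11. The young adult arrays lay more than 2 log2 units below every embryonic array. From E19.5 to young adults this probe set fell by 2.80 (SE 0.20, adjusted p = 1.82e-12) and 1434100_x_at fell by 2.52 (adjusted p = 3.7e-12). The probe sets 1456395_at and 1437751_at fell by 1.77 and 1.69. None of these 4 passed between E10.5 and E19.5, with differences from −0.52 to 0.13. Over the 12 stage means the 4 followed each other with Pearson r from 0.98 to 1.00 and followed 1460336_at with r from 0.75 to 0.80.

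Of these 4 probe sets, 2 were low on 1 array on which 1460336_at was high. On the mixed array of E17.5, 1460336_at had 9.67, the highest of that stage, while 1456395_at had 6.94 against 7.98 and 8.14 and 1437751_at had 6.24 against 7.04 and 7.14. On that array 1434099_at had 7.66 against 7.62 and 8.27, and 1434100_x_at had 7.33 against 7.59 and 8.02. The same array had a Gapdh 3′ minus 5′ difference of 2.76 against 4.32 and 4.49 on its stage's other arrays, and hybridization controls of 12.01 against 10.95 and 11.60. A fit with the hybridization control level as a covariate was also made. In it all 4 probe sets passed as lower in young adults than at E19.5, with differences of −2.46, −2.08, −1.02 and −0.97. Adult minus E10.5 no longer passed for 1456395_at (adjusted p = 0.269) and 1437751_at (adjusted p = 0.257). Control levels of E19.5 (highest 11.39) and of young adults (lowest 12.03) did not overlap, so this fit cannot separate stage from array quality. The Gapdh difference was not used as a covariate. The part of RNA quality in the difference between probe sets was not tested.

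Ppargc1b, the second PGC-1 coactivator, gave a bright signal with the same rise and return. At 1449945_at (chromosome 18), E10.5 had 8.80, 8.89 and 9.55, E15.5 had 10.85, 10.86 and 10.87, E19.5 had 10.86, 10.89 and 11.59, young adults had 9.40, 9.55 and 9.63, and old adults had 8.68, 8.69 and 9.23. All arrays of E15.5 and E19.5 lay above all arrays of E10.5, Adult and Old. The level at E19.5 was 2.03 ± 0.23 (SE, n = 3) above E10.5 (adjusted p = 2.82e-08) and then fell by 1.58 to the young adult (adjusted p = 2.7e-06). Young adults were 0.45 ± 0.23 above E10.5, which did not pass (adjusted p = 0.0909). That small difference changed with the processing: it was 0.98 (adjusted p = 0.00181) with centred arrays, 0.58 (adjusted p = 0.0324) with the sex label as a replicate block and −1.06 (adjusted p = 0.0163) with the hybridization control level as a covariate. The dimmer probe set 1457578_at moved alike, with 0.86 for E19.5 minus E10.5 and −0.83 for Adult minus E19.5.

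**Figure D2:**
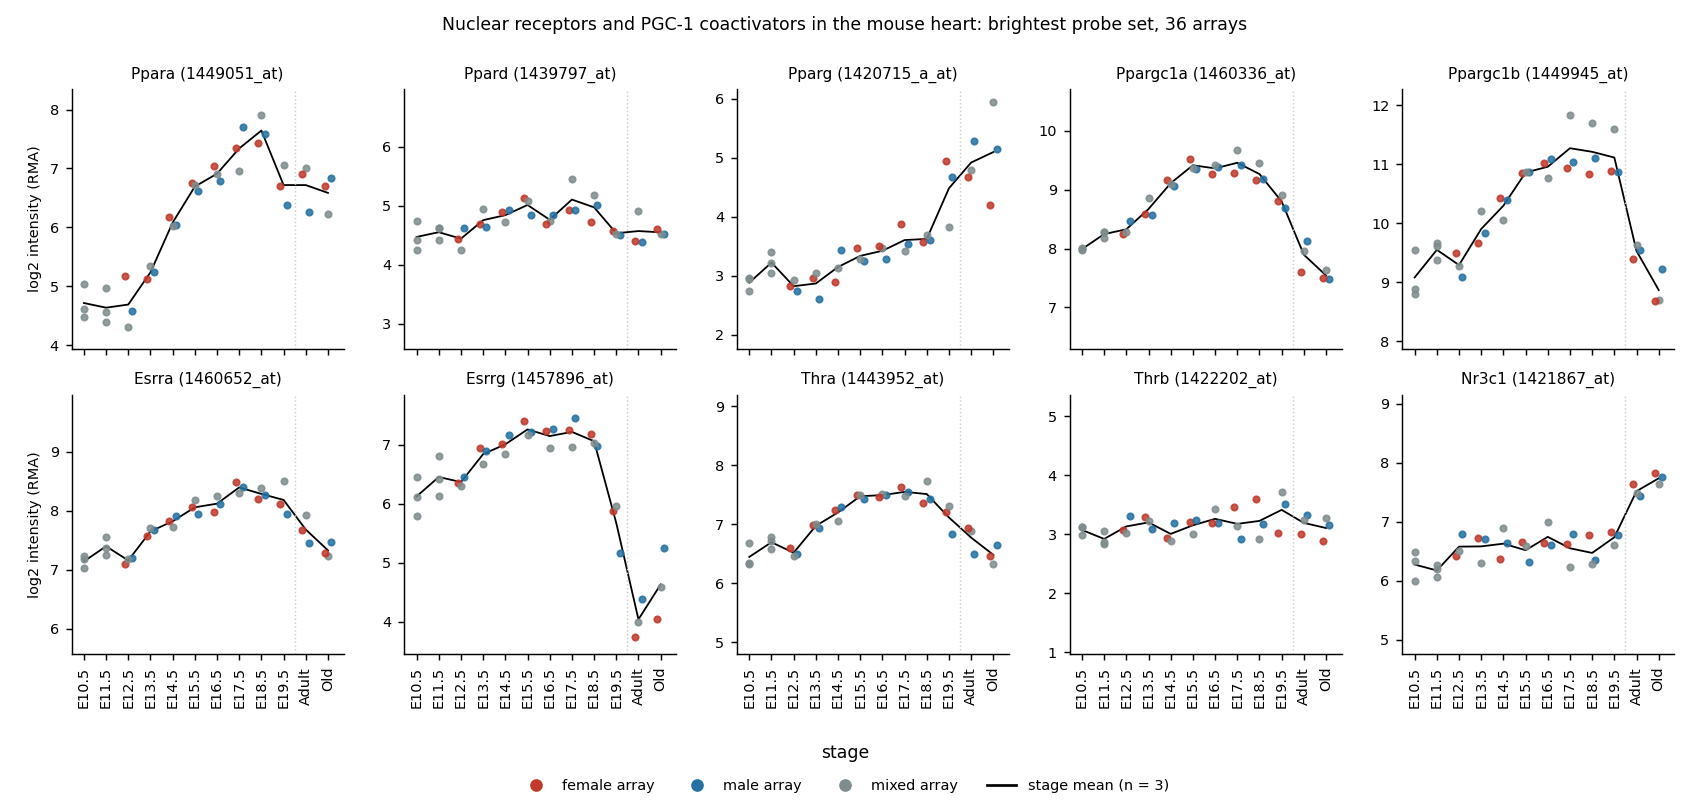
Log2 intensity (y axis, each panel spanning the same range of log2 units) of the brightest probe set of each gene at the 12 stages (x axis). Points are single arrays, coloured by sex label, and the line joins the stage means of 3 arrays. Ppara, Ppargc1b, Esrra and Thra peak at E17.5 or E18.5, Pparg and Nr3c1 are highest in Adult and Old, and Thrb and Ppard span 0.49 and 0.66 log2 units between stage means.

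Esrra, the estrogen-related receptor that works with PGC-1 on respiratory chain genes, rose before birth and was lower again in adults. At 1460652_at, E10.5 had 7.03, 7.18 and 7.23, E17.5 had 8.30, 8.41 and 8.49, E19.5 had 7.94, 8.12 and 8.5, and young adults had 7.45, 7.68 and 7.93. E10.5 did not overlap with any of the others, and the highest adult array was just under the lowest of E19.5. The difference was 1.04 ± 0.13 (SE, n = 3) for E19.5 minus E10.5 (adjusted p = 2.22e-07), −0.50 ± 0.13 for Adult minus E19.5 (adjusted p = 0.00435) and 0.54 ± 0.13 for Adult minus E10.5 (adjusted p = 0.000934). The adult decrease did not pass with centred arrays (−0.32, adjusted p = 0.127), among the arrays with the later title form alone (adjusted p = 0.0578) or without the mixed array of E19.5 (adjusted p = 0.0603). The Adult minus E10.5 call was lost with the hybridization control level as a covariate (0.58, adjusted p = 0.111). The second probe set, 1442864_at, gave a larger swing, with 1.90 for E19.5 minus E10.5 (adjusted p = 2.36e-10) and −1.66 for Adult minus E19.5 (adjusted p = 3.96e-09).

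Esrrg, the estrogen-related receptor of tissues with high energy demand, was read differently by its 3 probe sets. At the brightest, 1457896_at, E10.5 had 5.79, 6.12 and 6.46, E15.5 had 7.16, 7.22 and 7.41, E18.5 had 6.98, 7.03 and 7.18, E19.5 had 5.17, 5.88 and 5.97, and young adults had 3.74, 4.0 and 4.38. The fall came in 2 parts, by 1.39 from E18.5 to E19.5 (adjusted p = 0.00136) and by 1.63 from E19.5 to young adults (adjusted p = 1.38e-06), and no array overlapped across either. At 1455267_at the signal fell through the embryonic period instead, from 7.01, 7.29 and 7.55 at E10.5 to 5.11, 5.30 and 5.35 at E15.5 and 4.25, 4.43 and 4.85 at E19.5. That is −2.77 ± 0.31 (SE, n = 3) for E19.5 minus E10.5 (adjusted p = 1.99e-08), and the further adult difference of −0.34 did not pass. The same difference with the hybridization control level as a covariate was −1.80 (adjusted p = 0.0002). The third probe set, 1421747_at, stayed below 5 in every stage mean. Over the 12 stage means, 1457896_at and 1455267_at had a Pearson r of 0.34.

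Thra, the main thyroid hormone receptor gene of the heart, rose before birth, and its probe sets differed in the sign of their adult difference from E10.5 under the main scaling. At 1443952_at, E10.5 had 6.32, 6.35 and 6.68, E17.5 had 7.48, 7.54 and 7.63, E19.5 had 6.83, 7.21 and 7.31, and young adults had 6.49, 6.89 and 6.94. E17.5 lay above all of these, and young adults overlapped with both E10.5 and E19.5. E19.5 was 0.67 ± 0.14 (SE, n = 3) above E10.5 (adjusted p = 0.000201). The Adult minus E10.5 difference was 0.33 at this probe set (adjusted p = 0.0376), 0.71 at 1426997_at (adjusted p = 4.19e-06) and −0.31 at 1454675_at (adjusted p = 0.0477), and the last of these was 0.15 after quantile normalization again and 0.22 with arrays centred on bright probe sets, neither passing. The first of these lost its call without the first or second array of E10.5 or without the mixed or female array of young adults, with adjusted p from 0.125 to 0.156. On chromosome 11, Thra (98740776 to 98769006) overlaps by 1075 bases with Nr1d1, which is transcribed from the opposite strand.

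Thrb, the second thyroid hormone receptor gene, was at the bottom of the measured range. Its single probe set, 1422202_at, ranged from 2.83 to 3.72 over the 30 embryonic arrays with a median of 3.13, and from 2.89 to 3.33 over the 6 adult arrays. Stage means spanned 0.49 log2 units. Of the 66 pairs of stages, 1 differed at an adjusted p under 0.05, and none of the 4 main comparisons did. With arrays centred on bright probe sets, the differences from E10.5 were 0.68 at E19.5 (adjusted p = 0.00327) and 0.65 in young adults (adjusted p = 0.00303), where the medians of all probe sets were 0.49 and 0.71.

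Nr3c1, the glucocorticoid receptor, was higher in adults than before birth at its brightest probe set. At 1421867_at (chromosome 18), E10.5 had 6.0, 6.33 and 6.49, E19.5 had 6.6, 6.77 and 6.83, young adults had 7.44, 7.48 and 7.63, and old adults had 7.63, 7.76 and 7.82. The lowest adult array, at 7.44, lay above the highest of the 30 embryonic arrays, at 7.0. Young adults were 1.24 ± 0.17 (SE, n = 3) above E10.5 (adjusted p = 2.37e-07) and 0.78 ± 0.17 above E19.5 (adjusted p = 0.000592). The E19.5 minus E10.5 difference of 0.46 (adjusted p = 0.0269) lost its call under the sex label as a replicate block (adjusted p = 0.0609) and without the third array of E10.5 or the female or male array of E19.5. Among its other 5 probe sets, 1457635_s_at was 1.94 higher in young adults than at E10.5 (adjusted p = 2.14e-07) and had most of its rise before birth (1.48 for E19.5 minus E10.5). The probe set 1460303_at was 0.83 higher in young adults than at E10.5 (adjusted p = 0.0155), and the remaining 3 stayed below 5 in every stage mean. Adult minus E19.5 passed at neither of these 2, with 0.46 (adjusted p = 0.205) and 0.53 (adjusted p = 0.183). A fit with the hybridization control level as a covariate moved Adult minus E10.5 from 1.24 to 2.38 at 1421867_at and from 0.83 to 3.14 at 1460303_at. The summed signal of 5 macrophage markers was also higher in adults. It was 6.50 to 6.73 on E10.5 arrays and 8.31 to 8.86 on E13.5 arrays. On E19.5 arrays it was 8.24 to 8.45, and on young adult arrays 10.33 to 10.62. Of the 5, 1, 3, 3 and 3 were above 5 at these stages, and Cd68 and Cd14 were not in young adults. In the same order, Nr3c1 1421867_at had stage means of 6.27, 6.58, 6.73 and 7.52. The part of macrophages in the Nr3c1 signal was not tested.

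**Figure D3:**
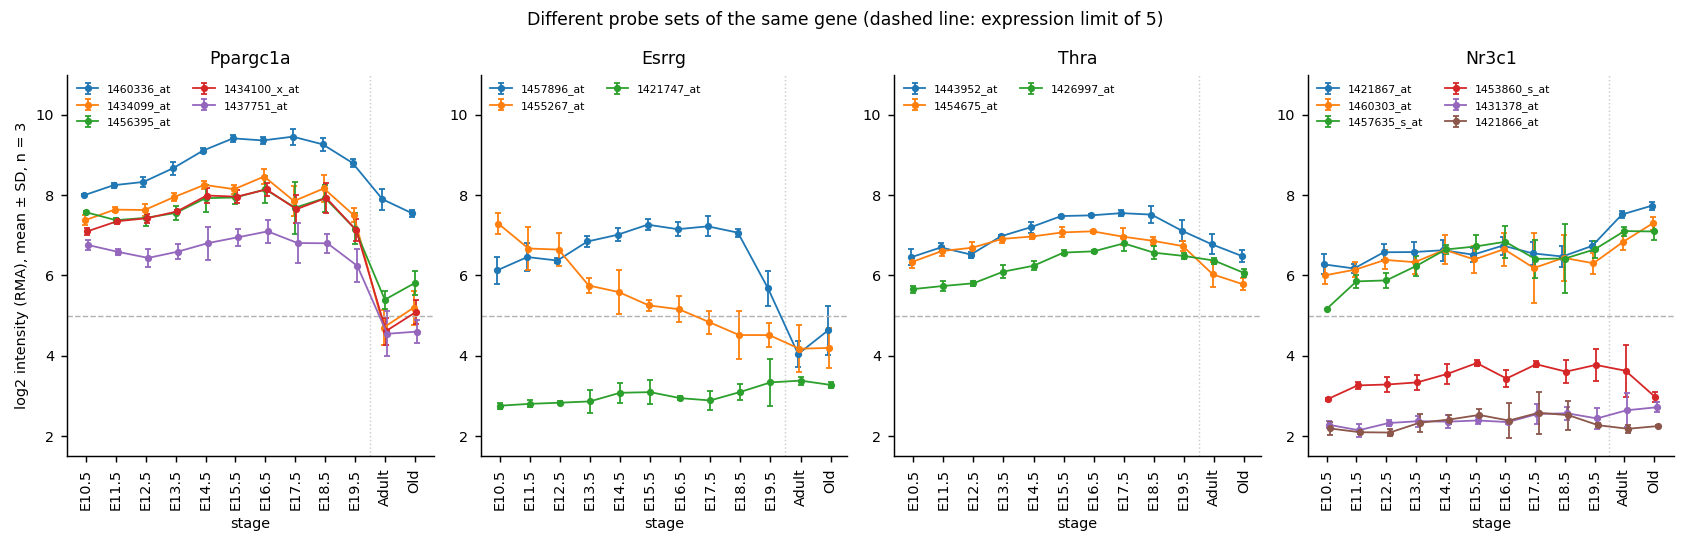
Stage means of log2 intensity (y axis, with SD, n = 3) of every probe set of Ppargc1a, Esrrg, Thra and Nr3c1 at the 12 stages (x axis), with the expression limit of 5 as a dashed line. In Ppargc1a, 4 probe sets drop to between 4 and 6 in adults while 1460336_at stays above 7. In Esrrg, 1455267_at falls from E10.5 on while 1457896_at falls only after E18.5.

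The 9 daily steps of the embryonic series were also tested, each for all 28 probe sets. Of the 28 probe sets, 1 passed between E12.5 and E13.5, Esrra 1442864_at with 0.76 (adjusted p = 0.0244), against 1.25% of all probe sets. Between E18.5 and E19.5, 3 were lower, against 1.33%: Ppara 1449051_at and Esrrg 1457896_at, given above, and Ppargc1a 1434100_x_at, which fell by 0.80 (adjusted p = 0.0239). At the other 7 daily steps 0 of the 28 passed in limma, where the background was 2.53%, 0.0976%, 0.0599%, 0.0377%, 0.0111%, 0.0133% and 0% in order of age. At an unadjusted p under 0.05 these 7 steps had between 0 and 7 of the 28, and the share over all probe sets at that threshold was not counted. The 12 stages of each of the 10 genes were also put in the order of their means, which gives 11 neighbouring pairs. Neighbours differed at an adjusted p under 0.05 only for Esrrg, between E19.5 and Old, and for Nr3c1, between Adult and E16.5. Such neighbours are close by construction, so this count cannot show whether change was gradual. Of all 66 pairs of stages, between 1 (Thrb) and 45 (Ppargc1a) differed. Shares over all probe sets were not counted for these pairs.

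None of the 28 probe sets passed a test of adult age or of sex. Between old and young adults 0 of the 28 probe sets passed in either direction, against 3.83% higher and 3.13% lower over all probe sets, and 0 passed the strict rule, against 0.00665%. At an unadjusted p under 0.05 there were 10. For this count, and for the unadjusted counts of the sex tests below, the share over all probe sets was not counted. They cannot be read as particular to the members. The lowest adjusted p among the 10 brightest probe sets was 0.0774 for Ppargc1b, whose old arrays all lay below the young ones, with a difference of −0.66 ± 0.23 (SE, n = 3). For Esrrg 1457896_at the difference was 0.59 ± 0.23, with overlap. For sex, the male array was set against the female array of its own stage in 9 stages, and 0 of the 28 passed in limma (2 at an unadjusted p under 0.05), against 0.0488% of all probe sets. The brightest probe set of Nr3c1 was higher in males in 2 of 9 pairs, with a mean difference of −0.07 ± 0.08 (SE), and that of Ppargc1a in 4 of 9, with 0.04 ± 0.08. Whether the sex difference itself changed between the 7 embryonic and the 2 adult pairs was also tested, and 0 of the 28 passed (7 at an unadjusted p under 0.05), against 0.548%. The lowest adjusted p was 0.0555 for Esrrg 1457896_at, whose male minus female mean was −0.11 over the embryonic pairs and 0.93 over the adult pairs.

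The genes around the receptors were read from 9 lists, each gene by its brightest probe set. Of 119 listed genes, 114 had a probe set. Over all genes read in this way, 26.2% were higher and 23.6% lower for E19.5 minus E10.5, 14.7% and 17% for Adult minus E19.5, 38.6% and 28.5% for Adult minus E10.5, and 4.46% and 3.13% for Old minus Adult. The medians over all genes were 0.16, 0.05, 0.21 and −0.00. The lists were taken from general knowledge, with earlier results of these data known, and their counts are descriptions. Other probe sets of a list gene could differ from its brightest in size or sign.

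Most PPAR target genes were, like Ppara, higher at E19.5 than at E10.5. Of 23, 15 were higher at E19.5 than at E10.5 and 0 were lower, with a median of 1.02. In young adults 16 were higher than at E10.5 and 1, Acot1 (a fatty acyl-CoA thioesterase), was lower, with a median of 0.73. Plin5, which coats lipid droplets in oxidative tissue, was 5.32 higher in young adults than at E10.5 (adjusted p = 8.47e-19) and Cd36, the fatty acid transporter, was 4.64 higher (adjusted p = 8.33e-15). The peroxisomal and mitochondrial enzyme gene Ech1 was 2.64 higher and the lipoprotein lipase gene Lpl 2.40 higher. Between E19.5 and young adults, 5 were higher and 4 lower. The 4 lower genes were Angptl4, a secreted inhibitor of lipoprotein lipase, at −2.75 (adjusted p = 9.95e-14), the thioesterase Acot2 at −1.67, Pdk4, which holds back glucose oxidation, at −1.59, and the dehydrogenase Acadl at −1.0. The higher genes included Plin5 at 1.84, Ech1 at 1.42, Lpl at 0.76 and Plin2 at 0.70. This count of higher genes was 8 with centred arrays and 10 with the hybridization control level as a covariate. Of the 4 lower genes, Angptl4, Acot2 and Pdk4 had stage means of 5.33, 7.85 and 6.02 at E18.5. At E19.5 they had 7.96, 9.58 and 8.30. Over the same step Acadl had 10.73 and 10.64. Ppara fell from 7.64 to 6.72 at 1449051_at, while its other probe sets, at −0.21 and −0.03, did not pass. Pparg was 0.86 higher over this step, which did not pass in limma (adjusted p = 0.117).

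Targets of the estrogen-related receptors and PGC-1, a list that includes Esrra itself, were mixed. Of 18, 10 were higher and 2 lower at E19.5 than at E10.5. In young adults 6 were higher and 3 lower than at E10.5, with a median of 0.25, and with arrays centred on bright probe sets 11 were higher and 1 lower. The count was 13 and 0 with the hybridization control level as a covariate. The largest differences were those of muscle forms: the creatine kinase Ckmt2 at 7.09 (adjusted p = 1.54e-12), the cytochrome oxidase subunits Cox8b at 5.65 and Cox6a2 at 3.36, and Fndc5 at 2.77. The 3 lower genes were the citrate cycle enzymes Idh3a at −2.08 and Cs at −0.54 and the complex III subunit Uqcrc2 at −0.39. The other probe sets of Idh3a ran from −0.77 to 0.92 and those of Cs from −1.67 to −1.35, and that of Uqcrc2 gave −0.64. Among 9 factors of mitochondrial biogenesis, 5 were lower in young adults than at E10.5, namely Tfb1m at −1.91, Tfam at −1.86, Gabpa at −1.79, Opa1 at −1.25 and Nrf1 at −0.56. The outer membrane fusion genes Mfn1 at 0.80 and Mfn2 at 0.76 were higher. The other probe sets of Mfn1 ran from −0.15 to 1.07, and that of Mfn2 gave 0.29.

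Coregulators moved both ways. Of 14, 4 were higher in young adults than at E10.5: Perm1, a muscle protein induced by PGC-1, at 2.32, Lpin1 at 1.62, Ncoa3 at 0.83 and Med1 at 0.40. The other probe sets of Perm1, Lpin1 and Ncoa3 gave 0.24, 1.99 and 0.38, and those of Med1 ran from −1.20 to 0.37. The 7 lower genes included the deacetylase Sirt1 at −2.48 (adjusted p = 7.69e-11), the PGC-1 related coactivator Pprc1 at −2.28 and the steroid receptor coactivator Ncoa2 at −1.77. The other probe sets of Ncoa2 ran from −1.78 to 0.15. Sirt1 and Pprc1 were higher again in old than in young adults, by 1.15 and 0.98. Of 12 partner and related receptors, 9 were higher in young adults than at E10.5 and 1, the retinoic acid receptor Rarb at −0.70, was lower, with a median of 1.10. The clock receptor Nr1d2 was 2.82 higher, the mineralocorticoid receptor Nr3c2 1.85, Esrrb 1.45 and the retinoid X receptor Rxrg 1.40. The other probe set of Nr1d2 gave 0.76, and those of Esrrb gave 0.37 and 0.75. Only 4 of the 12 were higher with the hybridization control level as a covariate.

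Hormone-related lists were read beside their receptors. Of 11 thyroid hormone responsive genes, 9 were higher in young adults than at E10.5 and 1, the slow myosin heavy chain Myh7 at −1.83, was lower. Those higher included the transcription factor Klf9 at 4.58 (adjusted p = 4.44e-15) and the glucose transporter Slc2a4 at 1.86. The count of higher genes was 5 with the hybridization control level as a covariate. In thyroid hormone supply, 3 of 7 were higher and 1, the transporter Slc16a10, was lower at −1.64 (−0.87 to 0.16 at its other probe sets). Of the 7, 3 were above 5 in any stage. Those higher included Dio2, which makes the active hormone, and Dio1, both below 5 in E10.5 (3.72 and 2.24) and in young adult hearts (4.75 and 2.63). Of 15 glucocorticoid responsive genes, a list that shares Klf9, 12 were higher in young adults than at E10.5 and 0 lower, with a median of 1.25, led after Klf9 by Zbtb16 at 3.00, the kinase Sgk1 at 2.66 and the metallothionein Mt1 at 1.56. Between old and young adults 6 of the 15 were higher, and by a choice made after their values were seen, Errfi1 is named with 2.60 (adjusted p = 0.000196) and Nfkbia with 0.95. Of 7 genes of glucocorticoid supply and chaperones, Hsd11b1, which regenerates the active hormone, was 2.08 higher, and 4 were lower: the chaperones Hsp90aa1 at −1.79 and Hsp90ab1 at −0.97, the cochaperone Fkbp4 at −1.60 and Hsd11b2, which inactivates the hormone, at −0.50. The other probe sets of Fkbp4 had the opposite sign, from 0.09 to 0.35. Those of Hsp90aa1 ran from −2.14 to 0.14, and that of Hsp90ab1 gave −1.78.

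**Figure D4:**
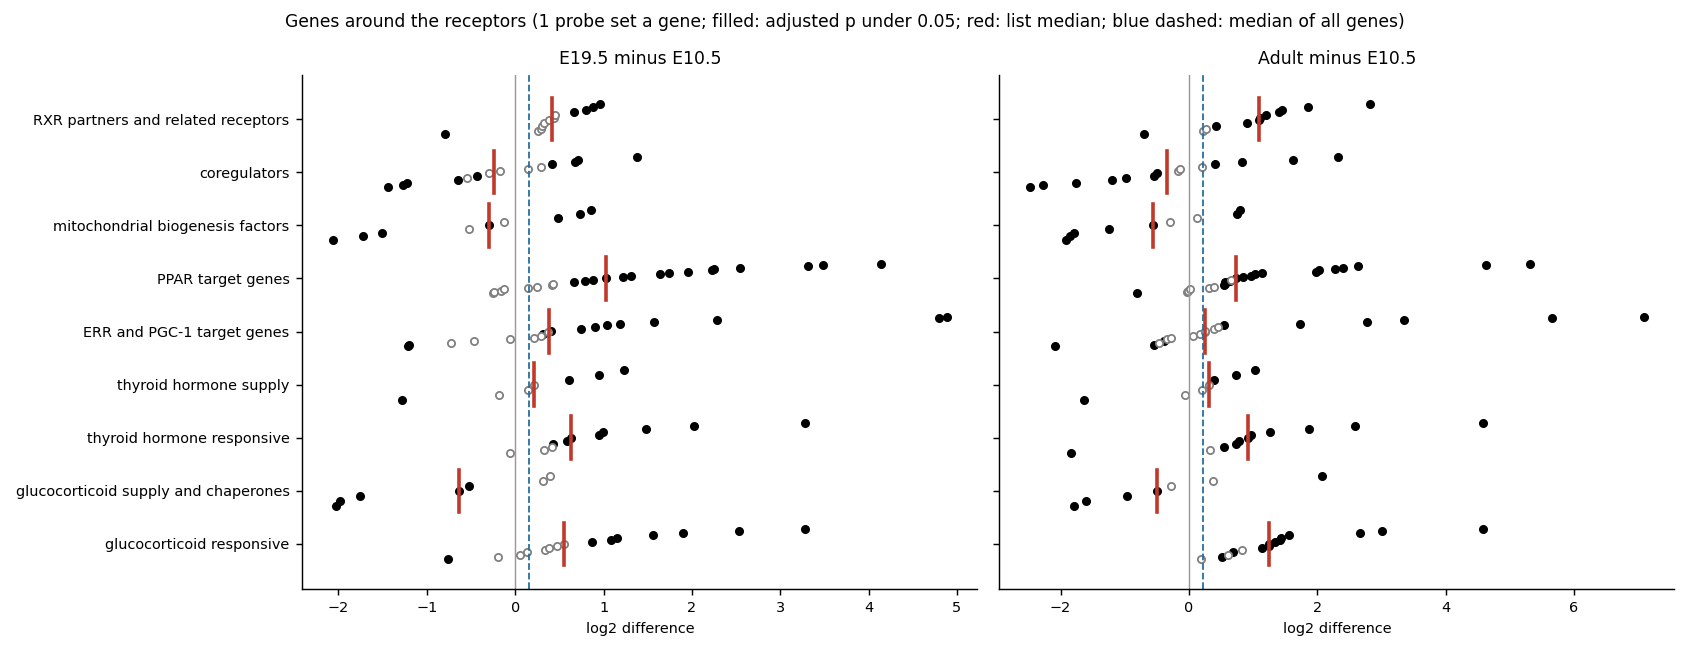
Log2 difference (x axis) of each gene of 9 lists (y axis), read at its brightest probe set, for E19.5 minus E10.5 and Adult minus E10.5. Filled points passed an adjusted p under 0.05, red bars are list medians and the blue dashed line is the median of all genes. PPAR target genes have medians of 1.02 and 0.73, and mitochondrial biogenesis factors of −0.30 and −0.56.

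The genes whose stage means followed each member most closely were found by Pearson r over the 12 stages among 18426 probe sets, as a description of shared time courses. For Ppara they were Usp2 (r = 0.98), Ndufs7, a subunit of respiratory complex I, and Plekhf1 (both r = 0.98). Pparg was followed by Cidea (r = 0.99), a lipid droplet gene and 1 of the brown adipocyte markers used here, Pnpla2, the triglyceride lipase (r = 0.99), and Rbp7 (r = 0.98). The mean of Cidea was 2.91 at E10.5 and 5.04 in young adults. The other markers of that list, Ucp1 and Elovl3, had means at or below 5 at every stage. Esrra was followed by Grip2 (r = 0.99), the muscle kinase gene Speg and the complex I gene Ndufv2 (both r = 0.98). Ppargc1b was followed by Hadh, an enzyme of fatty acid oxidation (r = 0.99), and by BC034090 and C030041B07Rik (both r = 0.99). Ppargc1a was followed by Mxd3 (r = 1.00), Rnf166 and 6330403L08Rik (both r = 0.98), and Esrrg by Cep95, Tbc1d31 and Kpna6 (all r = 0.99). For Thra they were Rmi1 (r = 0.99), Ripor2 and AU020147 (both r = 0.98). For Nr3c1 they were Tmem184b, the complement gene C1qb of macrophages, and Pea15a (all r = 0.98). The followers of Ppard (Ankzf1, Zfp142 and Ptdss1, r from 0.94 to 0.95) and Thrb (Tbx3, Mau2 and 5730455P16Rik, r from 0.85 to 0.87) had lower correlations.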

How the data were processed

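Total RNA of mouse hearts was labelled and hybridized to Affymetrix whole-genome mouse arrays. The authors made the deposited log2 values by robust multi-array average (background correction, quantile normalization, probe summary); the labels' processing notes name Affymetrix Expression Console and Partek 6.6. The values were used as deposited, and no aligner or genome build applies to them. The 28 member probe sets were found by gene symbol, and each gene is named by the probe set with the highest mean over all arrays. One model of 12 stage means was fitted to all 45101 probe sets with limma 3.58.1 in R 4.3.3 (prior degrees of freedom 6.96), with Benjamini-Hochberg adjustment over all probe sets within each comparison. Sex was tested over 9 stages, with stage as a block. The number of arrays limits the precision. Per the study's methods the 3 arrays of a stage are biological replicates: the female and male arrays each held the heart of a single animal, and the mixed arrays pooled hearts of both sexes, in a number not given in the sources used here. Same sex labels did not pair the arrays, with a median correlation of deviations of 0.04 over 135 pairs. Titles changed their form from the female array of E16.5 on, which coincides with late stages. The fit was tested on simulated data. The members and lists were chosen with earlier results of these data known. Named from each list are the up to 4 genes with the largest Adult minus E10.5 difference and any gene that a count of 5 or fewer covers, except that some list genes are not reported here; named as followers are the 3 closest genes. Gene positions and promoter windows come from RefSeq tables of GRCm38.p6.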

Additional observations from a re-analysis of the deposited data

Results flagged for a closer look

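The male minus female difference of Ppargc1a at 1460336_at was 0.52 in the young adult pair. It stood apart from the other 8 pairs, whose values began at −0.16 (E15.5), with a gap to the nearest value of 0.57 of the whole range, above the 95% limit of 0.493 for 9 values. Each side of the pair is 1 array, so the difference has no replicate check, and chance flags about 1 in 20 such groups. The young adult values were 8.13 (male), 7.95 (mixed) and 7.61 (female). In the old pair the difference was −0.02. In the young adult pair 1437751_at, also of Ppargc1a, had −1.06. Of the probe sets other than the brightest of each gene, Nr3c1 1421866_at (0.78 in the E16.5 pair, gap 0.709 of the range) and Thra 1454675_at (−0.59 in the young adult pair, gap 0.568) also exceeded that limit.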

How the results depend on the processing

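Among alternative counts of called member probe sets, 115 stayed within 1.5 times the main value and 11 did not. The strict count for Adult minus E10.5 was 4 in place of 8 with the hybridization control level as a covariate. With a log2 limit of 1 in place of 2, the strict counts were 7 for Adult minus E19.5 and 7 for E19.5 minus E10.5, and the latter was 5 with arrays centred on bright probe sets. For Old minus Adult, the count at an adjusted p under 0.05 was 2 after quantile normalization again and 2 after centring. Leaving out 1 array at a time, strict counts ranged from 7 to 9 (Adult minus E10.5), 2 to 2 (Adult minus E19.5), 1 to 5 (E19.5 minus E10.5) and 0 to 0 (Old minus Adult), and counts at an adjusted p under 0.05 from 17 to 18, 11 to 13, 15 to 19 and 0 to 2. The 1 came without replicate 2 of E10.5, the 5 without the male array of E19.5, and the 2 without the female young adult array; leaving out the mixed or the female old array gave 1. The cause was not tested. Among the 10 brightest probe sets, 2 differences changed sign with a call on 1 side: Ppargc1a 1460336_at, Adult minus E10.5, was 0.43 with centred arrays, and Ppargc1b 1449945_at, Adult minus E10.5, was −1.06 with the hybridization control level as a covariate. Of the other member differences, 471 kept direction and side of the threshold, 17 lost and 18 gained a call, and 28 moved without a call, some across 0 (Nr3c1 1421867_at, Old minus Adult, from 0.22 to −0.18 with that covariate). Among the dimmer probe sets, Nr3c1 1421866_at, Adult minus E10.5, went from −0.01 to 0.52 (adjusted p = 0.0423) with centred arrays. With the sex label as a replicate block, counts at an adjusted p under 0.05 were 21, 12, 17 and 0, and strict counts 8, 2, 2 and 0, and the pairing changed 2 calls at an adjusted p under 0.05 among the 10 brightest probe sets, those of Ppargc1b and Nr3c1 in the report. Ppara 1449051_at, E19.5 minus E10.5, was 1.98 under the block, below the strict limit. Alternatives for the gene lists and daily steps were chosen after seeing the data, and among the list counts 200 stayed within 1.5 times the main value and 34 did not. Arrays with the later title form alone allow only Adult minus E19.5 and Old minus Adult. Low signals, such as those of Thrb, lie near the bottom of the measured range, where differences are compressed.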
